A study of Mus musculus with 9 samples.

Results

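The probe sets described here read variable (V) segment genes of the immunoglobulin loci on a whole-transcript microarray, a glass chip whose probe sets are groups of short probes against the same transcript region. They were taken by name, as the probe sets whose gene symbols in the array's annotation all start with Ighv, Igkv or Iglv, and a probe set with several such symbols was kept as 1 unit. This gave 12 of the 28853 probe sets on the array, of which 23410 carried a gene name and were tested. All 12 read kappa light chain (Igkv) segments, 9 with 1 symbol and 3 with 2 symbols each, and they cover 14 V genes. No probe set carried heavy chain (Ighv) or lambda light chain (Iglv) symbols alone. Another 13 probe sets carry a V symbol together with a constant region, J segment or unrelated symbol, 7 of them with Igkv, 4 with Ighv and 2 with Iglv symbols, and these are described apart from the 12.

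RNA came from femoral bone marrow of 15 mice of strain C57BL6, hybridised as 9 samples in 3 groups of 3 arrays. The ERG leukemia group was whole marrow of 3 transgenic ERG mice with a myeloid leukemia, taken once signs of disease had appeared, with 1 mouse per array. The wild type lineage-negative group was marrow of 9 wild type mice, depleted of cells that carry mature lineage markers and pooled so that each array stands for 3 mice. The wild type whole marrow group was undepleted marrow of 3 other wild type mice, 1 per array. Neither the promoter and species of the transgene nor the ages of the mice are given in the labels. The numbers 1 to 3 of the leukemias only name them.

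An antibody's variable domain is encoded by a V segment that the RAG recombinase joins to a J segment, with a D segment between them in heavy chains, in each developing B cell. Each mature B cell and all its descendants therefore transcribe mainly the heavy chain V segment and the light chain V segment that they joined, and in mice most B cells use a kappa chain. A plasma cell, the end stage of this lineage, makes far more immunoglobulin mRNA than a resting B cell, and bone marrow is where long-lived plasma cells reside. The signal of a V segment in bulk marrow thus depends on the number of B and plasma cells, on the mRNA in each, and on which clones they belong to. In bulk samples fewer cells of a type and less RNA per cell cannot be told apart.

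Over all probe sets the arrays had median intensities of 32.3 to 34.4, and within groups their correlation across probe sets lay between 0.974 and 0.995. Values below are log2 intensities of 1 probe set unless stated, and each result compares the same probe set between arrays. Means were ranked across probe sets only to choose which segments to name, and the median of all probe sets on an array served as a mark of low signal. All 14 V genes were found in the RefSeq table of GRCm38.p6, on chromosome 6. That table lists 162 Igkv, 183 Ighv and 3 Iglv genes in all. By that table the 14 genes run from Igkv1-135, farthest from the J and constant segments, to Igkv6-14. In only 1 of 66 pairs did 2 of the 12 probe sets share a source accession, and that pair is the 2 probe sets of Igkv19-93, called A and B here. Of the 12, 4 share an accession with one of the 13 mixed probe sets. Binding of related V segments to the same probes was not tested.

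Kappa V segment signal was low in 1 of the 3 leukemias and much nearer to wild type in the other 2. Leukemia 2 was the lowest of the 9 arrays on 12 of 12 probe sets. These are 12 readings of the RNA of 1 mouse and not replicates. The share of all probe sets that were lowest on that array is not given here. The median over the 12 was 7.50, 5.59 and 8.41 in leukemias 1, 2 and 3, against 8.58, 8.0 and 8.79 in lineage-negative pools 1, 2 and 3 and 8.32, 8.02 and 8.39 in whole marrow arrays 1, 2 and 3. In leukemia 2, 8 of the 12 lay above that array's median over all probe sets, while all 12 did on each other array. Summed intensity over the 12 was 6509, 820 and 6814 in the leukemias, between 4432 and 10641 in the pools and between 5378 and 8331 in whole marrow. Of the 6509 in leukemia 1, 2739 came from Igkv9-120 alone, so that sum rests heavily on 1 probe set.

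**Figure D1:**
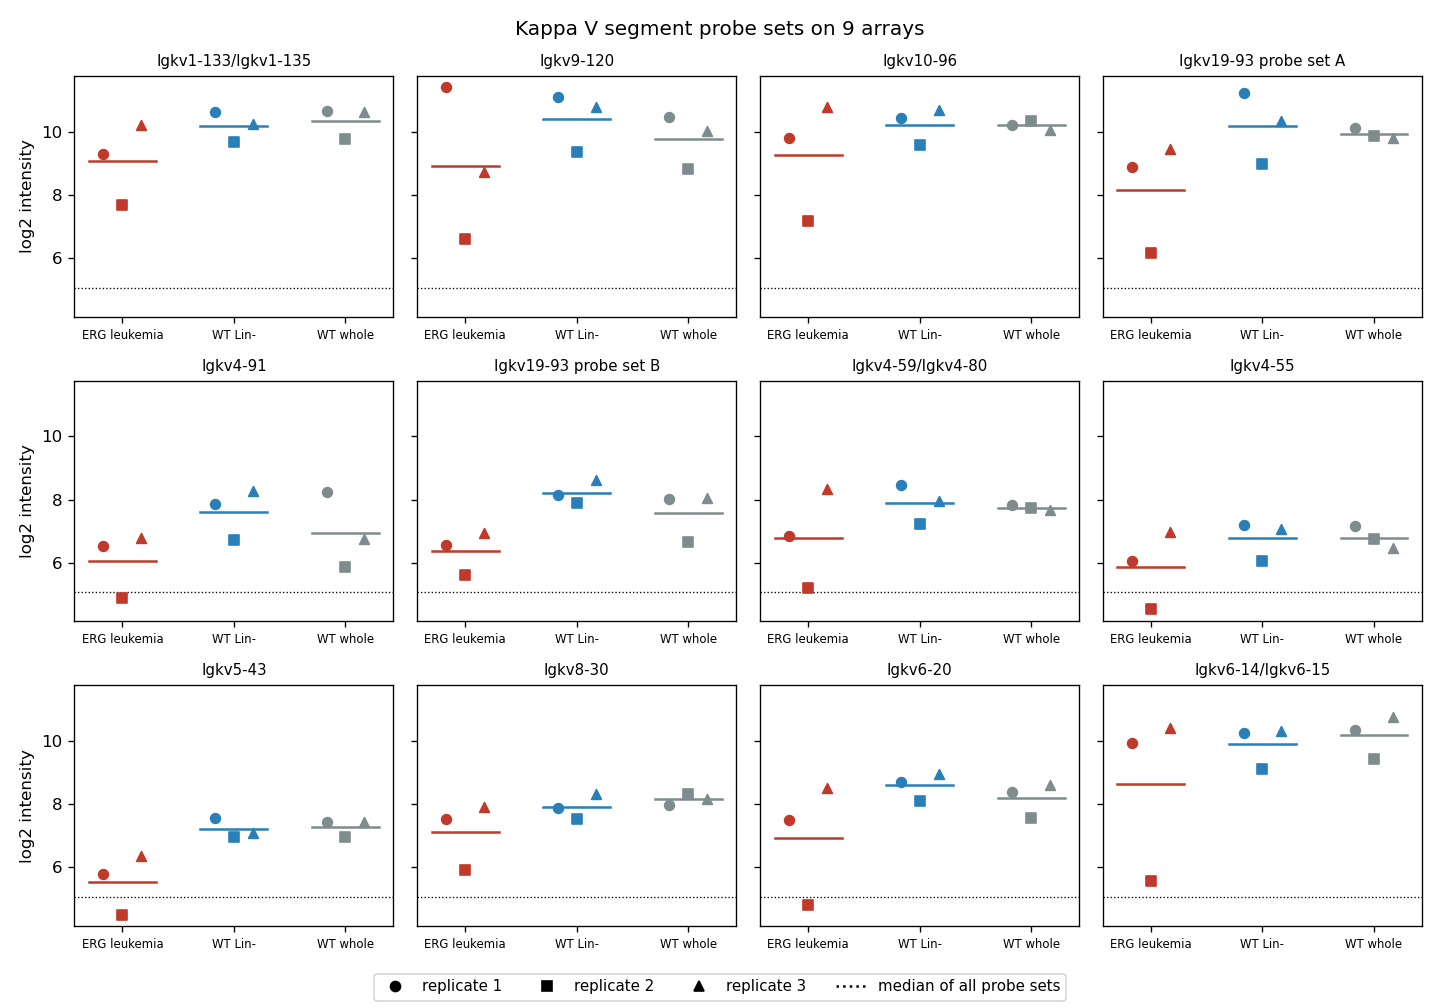
Log2 intensity (y axis) of each of the 12 kappa V segment probe sets on the 9 arrays, by group (x axis), with symbols for replicates 1 to 3, a bar for the group mean and a dotted line at the median of all probe sets. Leukemia 2 is the lowest of the 9 arrays in every panel, and Igkv9-120 in leukemia 1, at 11.42, is the highest point of its panel.

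By their median, these probe sets varied between arrays of a group far more than most of the array did. Their median standard deviation (SD) was 1.41 in the leukemias, where the median of all named probe sets was 0.13. It was 0.59 in the pools, against 0.10 for all, and 0.43 in whole marrow, against 0.13. Of all named probe sets 0.252% had an SD in the leukemias as large as the median of the 12, 0.705% in the pools and 3.97% in whole marrow. By SD, 12 of the 12 were in the top 5% of named probe sets in the leukemias, 11 in the pools and 6 in whole marrow. In whole marrow Igkv4-59/Igkv4-80 had an SD of 0.08, below the median of all. Within the pools, pool 2 was the lowest on 12 of 12 probe sets. Within whole marrow, array 2 was the lowest on 7.

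Set against undepleted marrow of other, wild type mice, 1 of the 12 kappa probe sets fell and 0 rose by limma at an adjusted p of 0.05. Of all named probe sets, 9.56% were lower and 14.5% higher by the same test, so the share of calls was near the background. The log2 difference was below 0 for 12 of 12, as for 53% of all probe sets, with values from -1.77 to -0.86. The median of the 12 was -1.11, where all probe sets had -0.02, and it was -0.28 without leukemia 2. Groups did not overlap, leukemias lower, for 3 of the 12, against 17% of all probe sets.

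The segment that passed was Igkv5-43. It stood at 5.78, 4.49 and 6.35 in leukemias 1, 2 and 3, against 7.44, 6.95 and 7.42 in whole marrow arrays 1, 2 and 3. Every leukemia lay below every whole marrow array, and leukemia 2 lay below the median of all probe sets. Its mean was 5.54 ± 0.95 in the leukemias and 7.27 ± 0.28 in whole marrow (SD, n = 3 each), a log2 difference of -1.73 ± 0.41 (SE, limma adjusted p = 0.0172), or 3.32-fold lower. The call was lost without whole marrow array 1 (-1.64, limma adjusted p = 0.0598) or array 3 (-1.66, limma adjusted p = 0.0511). Without leukemia 2 the difference was -1.21 and still passed. The other probe sets with no overlap were Igkv19-93 probe set A (-1.77 ± 0.83) and Igkv8-30 (-1.04 ± 0.45), with limma adjusted p values of 0.173 and 0.144.

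Leukemia 2 lay farthest from whole marrow on 12 of 12, but not all of each difference rested on it: that of Igkv19-93 probe set B, which did not pass, was -1.19 with it and -0.81 without it. Relative to the whole marrow mean of each probe set, leukemia 2 ran from -4.63 to -1.94 with a median of -2.72, and it lay below all whole marrow arrays on 12 of 12. Leukemia 1 had a median of -0.71 and lay below all whole marrow arrays on 9 of 12. Leukemia 3 had a median of -0.16, lay below them on 4 and above all of them on 2. The widest gap was that of Igkv6-14/Igkv6-15, a probe set that reads 2 neighbouring segments. It stood at 9.94, 5.55 and 10.42 in leukemias 1, 2 and 3, against 10.35, 9.43 and 10.75 in whole marrow, so that 2 leukemias lay within the wild type range and 1 lay far below it. Its difference was -1.54 ± 1.12 (limma adjusted p = 0.395), and without leukemia 2 it was 0.00056.

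**Figure D2:**
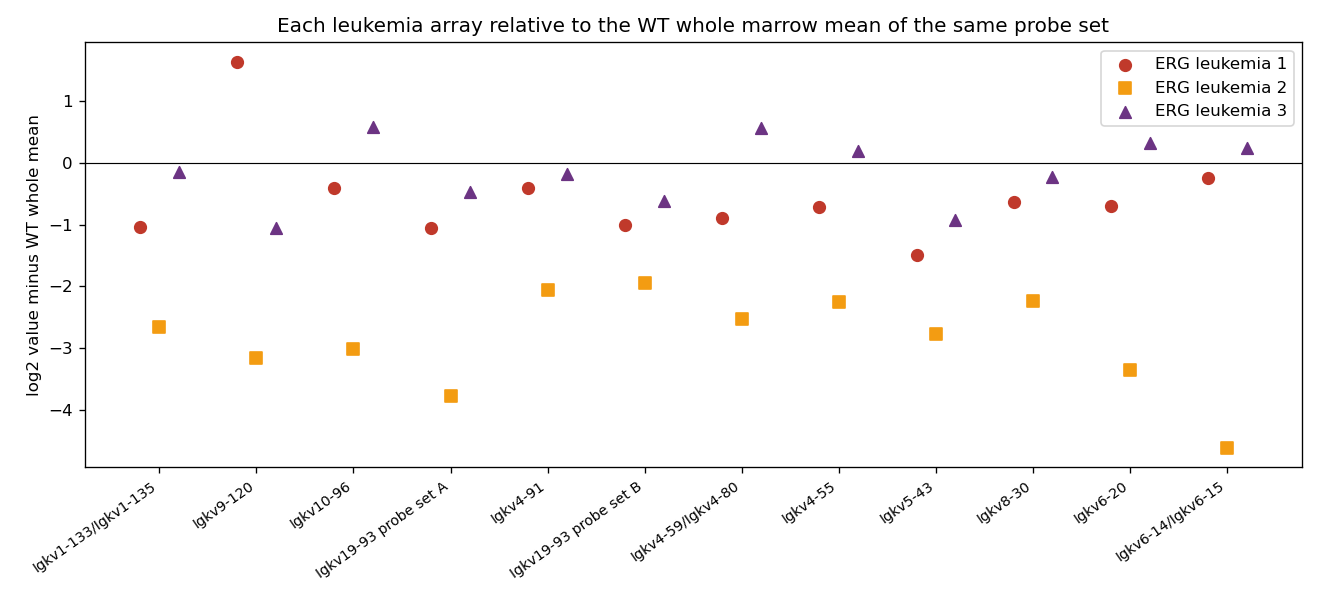
Log2 value in each leukemia minus the wild type whole marrow mean of the same probe set (y axis) for the 12 kappa V segment probe sets (x axis). Leukemia 2 lies at -1.94 or below throughout, and Igkv9-120 is the only probe set where leukemia 1 lies above 0, at 1.64.

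Single segments departed from this overall shift. To separate the 2, each array's median over the 12 was subtracted, and a segment was taken to stand out where 1 array then exceeded the other 2 of its group by at least 1 on the log2 scale. There were 3 such cases, each on 1 array and thus without a replicate. The largest was Igkv9-120 in leukemia 1, which exceeded the next leukemia by 2.88 after this step and by 2.69 before it. Igkv9-120 stood at 11.42, 6.62 and 8.73 in leukemias 1, 2 and 3, against 11.11, 9.35 and 10.79 in the pools and 10.48, 8.83 and 10.03 in whole marrow. Leukemia 1 had the highest value of all 9 arrays there, while on the other 11 probe sets it lay below the whole marrow mean. In intensity the value was 2739 in leukemia 1, against 1426, 456 and 1043 in whole marrow.

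The high value in leukemia 1 was seen on 1 of the 3 probe sets that carry the Igkv9-120 symbol. A pair of other probe sets carries Igkv9-120 together with Igk-V21, Igkv1-117 and Map3k20. The first of that pair stood at 9.50 in leukemia 1 and at 9.88 in leukemia 3, and the second at 10.76 and 11.30. On both, leukemia 1 lay below leukemia 3, unlike on the probe set named for Igkv9-120 alone. With leukemias as variable as this, the group difference of Igkv9-120 was -0.86 ± 1.07 against whole marrow (limma adjusted p = 0.648), and it was 0.29 without leukemia 2.

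The other 2 cases were in wild type marrow. Igkv4-91 stood at 8.25, 5.85 and 6.74 in whole marrow arrays 1, 2 and 3, an excess of 1.59 in array 1 after the array medians were subtracted. Igkv19-93 probe set A stood at 11.24, 8.97 and 10.34 in pools 1, 2 and 3, an excess of 1.10 in pool 1. Before the subtraction that excess was 0.90, while Igkv4-59/Igkv4-80 and Igkv6-20 in leukemia 3 exceeded the other leukemias by 1.46 and 1.02. Probe set B of Igkv19-93 did not show the same order, with 8.14, 7.90 and 8.62 in pools 1, 2 and 3. Leukemia 3 had the highest value of all 9 arrays on 1 probe set, Igkv10-96, with 9.80, 7.19 and 10.79 in leukemias 1, 2 and 3, against 10.42, 9.59 and 10.68 in the pools and 10.22, 10.35 and 10.05 in whole marrow. The probe sets that ranged least over the 9 arrays were Igkv8-30 (2.41), Igkv4-55 (2.65) and Igkv1-133/Igkv1-135 (2.95).

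Against wild type lineage-negative marrow, which is enriched in stem and progenitor cells, 2 of the 12 fell and 0 rose, where 4.98% of all named probe sets were lower and 2.64% higher. This comparison uses the same leukemia arrays as the one before. The difference was below 0 for 12 of 12, as for 47.8% of all probe sets, with a median of -1.37 that was -0.38 without leukemia 2. All probe sets had a median of 0.01. Groups did not overlap for 2 of the 12, leukemias lower, against 16% of all probe sets.

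The segments that passed were Igkv19-93, by probe set B, and again Igkv5-43. Probe set B stood at 6.55, 5.62 and 6.95 in leukemias 1, 2 and 3, against 8.14, 7.90 and 8.62 in pools 1, 2 and 3. The leukemias all lay below the pools, with a difference of -1.84 ± 0.44 (limma adjusted p = 0.0395), or 3.59-fold lower. Probe set A of the same segment differed by -2.01 ± 0.83 with overlapping arrays and did not pass (limma adjusted p = 0.202). Igkv5-43, at 7.57, 6.97 and 7.09 in the pools, differed by -1.67 ± 0.41 (limma adjusted p = 0.0457). Under 16 other settings Igkv19-93 probe set B passed in 8 and Igkv5-43 in 6. The value of Igkv19-93 probe set B was -1.47 and that of Igkv5-43 -1.15 without leukemia 2, and only the second then passed.

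**Figure D3:**
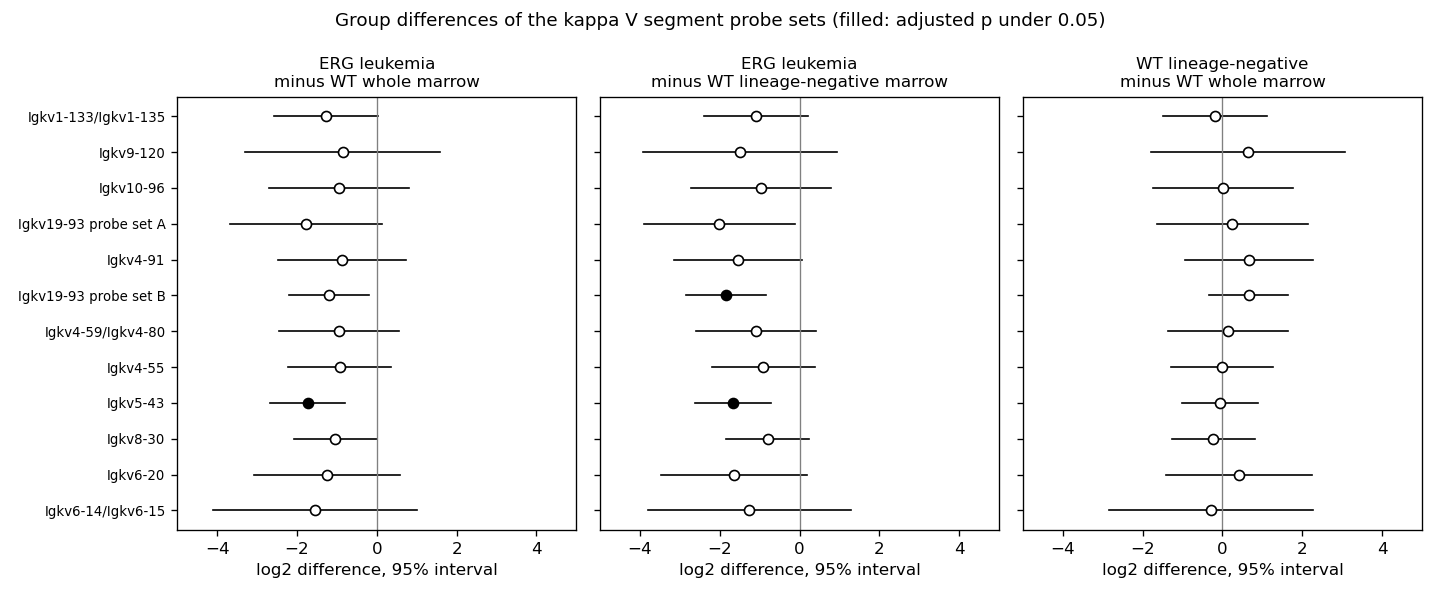
Log2 difference with its 95% interval from limma (x axis) for the 12 kappa V segment probe sets (y axis) in the 3 comparisons, with filled circles where the adjusted p was under 0.05. All 24 differences of the leukemias lie below 0, 3 of them filled, and those between the wild type groups lie between -0.28 and 0.66.

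Kappa V segment signal was present after lineage depletion, and no difference was detected. Between wild type lineage-negative and whole marrow 0 of the 12 passed in either direction by limma, also at an unadjusted p of 0.05, where 12.5% of all named probe sets were lower and 21.6% higher. The differences ran from -0.28 to 0.66 with a median of 0.08, 7 above 0, where 45% of all probe sets were, and 5 below, where 55% were. The arrays overlapped on all 12, while 22.8% of all probe sets were lower without overlap and 26.8% higher. The 95% intervals of these differences reached from -2.84 to 3.07, so changes of several fold in single segments were not resolved. The spread behind them was pooled over all 3 groups, so the leukemias widened the intervals of probe sets that varied more there. Igkv10-96 had an SD of 1.86 in the leukemias, 0.57 in the pools and 0.15 in whole marrow. With only the 2 wild type groups fitted, 0 of the 12 passed as well. Igkv5-43 had the narrowest interval, -1.003 to 0.886. Igkv1-133/Igkv1-135 stood at 10.62, 9.67 and 10.24 in the pools, against 10.64, 9.78 and 10.64 in whole marrow, and Igkv6-20 at 8.71, 8.11 and 8.96 in the pools, against 8.38, 7.57 and 8.61.

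Constant region genes and the J chain gene, whose protein links IgA and IgM into polymers in plasma cells, were also lowest in leukemia 2. Jchain stood at 8.51, 5.94 and 9.83 in leukemias 1, 2 and 3, against 9.70, 8.80 and 9.80 in the pools and 10.05, 9.23 and 9.59 in whole marrow. Leukemia 2 was again the lowest array and leukemia 3 lay within the wild type range. Of the 4 measured genes of this list (Ighm, Ighg3, Igha and Jchain), each read by its brightest probe set, 0 passed in any of the 3 comparisons. Leukemia 2 was the lowest of the 9 arrays on all 7 of their probe sets. The 3 probe sets of Ighm, the IgM heavy chain constant gene, differed in size, by -1.31, -1.74 and -3.36 against whole marrow, and the last passed (limma adjusted p = 0.00864), as it did against the pools (-3.04, limma adjusted p = 0.0322). That probe set stood at 5.40, 3.86 and 6.55 in leukemias 1, 2 and 3, against 8.89, 7.27 and 8.77 in the pools and 8.96, 8.98 and 7.95 in whole marrow.

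The 13 probe sets that mix V with other symbols, 7 of them kappa, are not independent of the 12. Leukemia 2 was the lowest of the 9 arrays on 13 of 13. Against whole marrow 1 fell and 0 rose, with a median of -1.47, and against the pools 0 passed, with a median of -1.53. Between the pools and whole marrow 0 passed, with a median of 0.02. A probe set named for Ighv3-6 and Igha stood at 7.06, 4.87 and 7.66 in the leukemias, against 10.22, 7.15 and 8.33 in the pools and 8.02, 6.16 and 8.32 in whole marrow. One of the 2 probe sets named for Iglv1, Iglv2 and Iglc1 stood at 7.44, 5.33 and 7.80 in the leukemias, against 9.78, 8.04 and 9.24 in the pools and 10.13, 6.78 and 9.06 in whole marrow.

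Most B cell genes were low in both the pools and the leukemias. In lineage-negative against whole marrow 18 of 20 measured B cell genes fell and 0 rose, with a median of -2.44. Ms4a1, which encodes the B cell surface protein CD20, stood at 4.48, 4.12 and 4.56 in the pools, against 8.67, 6.59 and 9.29 in whole marrow, a difference of -3.80 ± 0.59 (limma adjusted p = 0.00133). The pool values lay below the median of all probe sets, 5.06, so the size of that difference is uncertain. Cd79a, a signalling subunit of the B cell receptor, differed by -2.97 ± 0.48 (limma adjusted p = 0.00158). Whether V segments and B cell genes differ in this was not tested. In the leukemias against whole marrow 17 of 20 B cell genes fell and 0 rose, with a median of -2.04, and 15 fell without leukemia 2. Of the 3 that did not pass, Cd72 stood at 9.13, 5.08 and 9.54 in leukemias 1, 2 and 3. It stood at 8.98, 7.66 and 9.90 in whole marrow, so only leukemia 2 lay below that range. Against the pools 0 B cell genes fell and 1 rose, Bank1, an adaptor of B cell receptor signalling (1.73, limma adjusted p = 0.0407). Bank1 passed in 9 of 16 other settings, and the count was 0 without leukemia 1, leukemia 3, any 1 pool or whole marrow array 1, 3 without leukemia 2 and 5 without whole marrow array 2. Summed intensity of the list was 2285, 1418 and 2627 in the leukemias, 1539, 1047 and 1279 in the pools and 7108, 3762 and 10774 in whole marrow. Whole marrow array 2 was thus the lowest of its group on B cell genes. Relative to whole marrow the median of the list was -2.21, -2.41 and -1.66 in leukemias 1, 2 and 3, against -2.24, -2.77 and -2.45 in the pools.

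**Figure D4:**
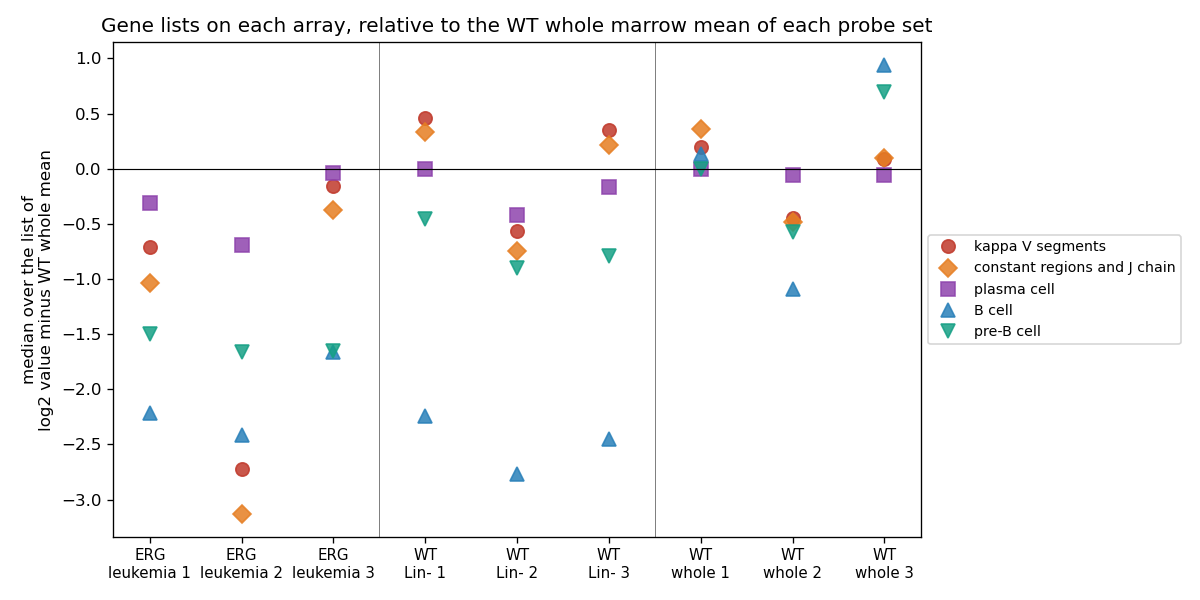
Median over each gene list of the log2 value minus the whole marrow mean of the same probe set (y axis) on the 9 arrays (x axis), for the 12 kappa V segments, the constant region and J chain genes, and plasma, B and pre-B cell genes. On the pools V segments lie between -0.56 and 0.46 and B cell genes at -2.24 or below. On leukemia 2 V segments lie at -2.72, against -0.71 and -0.16 on leukemias 1 and 3.

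By the list median, plasma cell genes lay nearer to whole marrow than B cell genes did, but single genes differed. Relative to whole marrow the median of the 15 genes was -0.32, -0.69 and -0.03 in leukemias 1, 2 and 3, against -0.42 and -0.17 in pools 2 and 3 and a value near 0 in pool 1, so leukemia 2 and pool 2 were again the lowest of their groups. Summed intensity of the list was 2992, 2485 and 3373 in the leukemias, 2802 to 3513 in the pools and 3548 to 3659 in whole marrow. Against whole marrow 4 fell (Irf4 at -2.33, Slamf7 at -1.56, Mzb1 at -1.41 and Sec11c at -0.45) and 0 rose. Without leukemia 2 only 1 fell, and 2 fell without leukemia 1, whole marrow array 1 or whole marrow array 3. Mzb1, a chaperone for immunoglobulin chains, stood at 4.74, 4.30 and 5.57 in the leukemias, against 5.97, 4.88 and 5.72 in the pools and 6.32, 5.83 and 6.69 in whole marrow. Sdc1, the plasma cell marker syndecan-1, stayed between 4.37 and 5.25 on all arrays, near the median of all probe sets. Prdm1, Tnfrsf17 and Fkbp11 had means below that median in every group, so a fall in these genes could hardly be seen. Against the pools 1 plasma cell gene fell, Creb3l2, and 0 rose. Between the pools and whole marrow 3 fell (Irf4 at -2.17, Slamf7 at -1.46 and Sec11c at -0.35) and 2 rose (Ell2 at 0.94 and Creb3l2 at 0.65). The count that fell was 0 without pool 2, 1 without pool 3 or whole marrow array 1, and 5 without leukemia 2.

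Most pre-B cell genes were low in the leukemias. Of 12 pre-B cell genes 10 fell and 0 rose against whole marrow, with a median of -1.66, and 9 fell without leukemia 2. Vpreb2 and Myb did not pass. Rag1, the catalytic subunit of the recombinase, stood at 4.31, 4.44 and 4.32 in the leukemias, against 4.59, 4.46 and 4.45 in the pools and 6.38, 5.62 and 8.31 in whole marrow. Its signal in the leukemias lay below the median of all probe sets, with a difference of -2.41 ± 0.55 from whole marrow (limma adjusted p = 0.0141). Dntt, which adds bases at the junctions, stood at 4.61, 4.30 and 4.50 in the leukemias, against 6.37, 5.96 and 6.05 in the pools, and fell by 1.66 against them (limma adjusted p = 0.00725). Against the pools 3 of the 12 genes on this list fell (Dntt, Sox4 and Myb), and between the pools and whole marrow 6 fell and 1 rose. Dntt, Sox4 and Myb had their highest group mean in the pools, at 6.13, 6.69 and 10.11. In whole marrow their means were 5.98, 6.14 and 9.49.

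Of 13 genes of V(D)J recombination and end joining 5 fell and 1 rose in the leukemias against whole marrow. The 5 include Rag1, Rag2 and Dntt, which were also counted in the pre-B cell list. The one that rose was Xrcc5, a DNA end-binding subunit of the Ku complex (1.51 ± 0.24, limma adjusted p = 0.00284). The other 7 did not pass. Against the pools 1 fell, Dntt, and 1 rose, Hmgb2, read by the brightest of its 4 probe sets. That call of Hmgb2 was lost without any 1 leukemia or any 1 pool. Between the pools and whole marrow 4 fell and 3 rose, and 2 fell without pool 3, whole marrow array 1 or whole marrow array 3. Of 15 transcription factors that act on the immunoglobulin loci 7 fell and 1 rose in the leukemias against whole marrow. The 7 include Pou2af1, Pax5 and Ebf1, also counted as B cell genes, and Irf4, also counted as a plasma cell gene. The one that rose was Tcf3 (0.81, limma adjusted p = 0.0487), which passed in 4 of 16 other settings and was lost on leaving out any 1 array except whole marrow array 3. Pou2af1, a coactivator at the octamer motif of V segment promoters, differed by -2.22 ± 0.45 (limma adjusted p = 0.00902), while the octamer-binding factor gene Pou2f2 differed by 0.08 ± 0.40 (limma adjusted p = 0.921). Against the pools 0 fell and 1 rose, E2f2, and 3 rose without leukemia 2. Between the pools and whole marrow 8 fell and 2 rose, Tcf3 and Yy1, which passed in 11 and 9 of 17 other settings. That count of 2 was 0 after cyclic loess or without pool 2, whole marrow array 1 or whole marrow array 2, and 1 without pool 1 or pool 3. Both calls were also lost with a replicate block. The call of Yy1 was further lost with centring on the 75th percentile and with trend and robust moderation in limma.

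Markers of other marrow cells were measured beside these. Between the pools and whole marrow 10 of 10 mature neutrophil genes and 7 of 8 T cell genes fell, and 3 of 6 erythroid genes rose (5 without whole marrow array 3). In the leukemias against whole marrow 7 neutrophil and 6 T cell genes fell and 4 erythroid genes rose. The neutrophil count was 4 without leukemia 2 or any 1 whole marrow array. Against the pools 9 neutrophil genes rose, and 0 T cell and 0 erythroid genes passed. Leukemia 2 and pool 2, the lowest of their groups on V segments, also stood apart here. Relative to whole marrow, the median of the neutrophil genes was -0.99, -1.75 and -1.002 in leukemias 1, 2 and 3, against -4.30, -5.63 and -4.53 in pools 1, 2 and 3. That of the erythroid genes was 1.33, 2.10 and 1.77 in the leukemias, against 1.14, 1.67 and 1.15 in the pools. Leukemia 2 and pool 2 were thus the lowest of their groups on neutrophil genes and the highest on erythroid genes. Whole marrow array 2, with the lowest V segment median of its group, did not share this. Its erythroid median was the lowest of its group, at -0.74, against 0.065 and 0.62 in arrays 1 and 3. Its neutrophil median, -0.016, lay between theirs, 0.14 and -0.16. Summed intensity of the neutrophil list was 14368 to 21028 in the leukemias, 715 to 2132 in the pools and 34391 to 40762 in whole marrow, and that of the erythroid list was 2142 to 4520 in the leukemias, 2631 to 3651 in the pools and 867 to 2584 in whole marrow. The part of these cells in the V segment values was not tested.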

How the data were processed

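Each deposited value is a linear intensity. The submitters' processing notes name RMA, a joint background correction, normalization and summary of probes, and Partek. Their versions and the genome build were not given in the sources used here. Coordinates and sequences are therefore not printed. The design assumed that a log2 step might be needed. The values were linear, so they were log2-transformed without a pseudocount, and no filter or further normalization was applied. Detection calls were not used here.

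Symbols came from the platform annotation, in which 21789 probe sets had 1 symbol, 1621 had several and 5443 were not named. All 14 member V genes had the same symbol in RefSeq (GRCm38.p6). Every named probe set entered 1 linear model of the 9 arrays in limma 3.58.1 (R 4.3.3, lmFit, contrasts.fit, eBayes without trend), which had 6 residual degrees of freedom and 2.62 from the prior. Two-sided tests were used, with Benjamini-Hochberg adjustment over all 23410 probe sets and a threshold of 0.05. For list genes with several probe sets the one with the highest mean stood for the gene. Lists used single-symbol probe sets: constant region, plasma cell, B cell, pre-B cell, recombination, transcription factor, T cell, neutrophil and erythroid genes. Some genes are in more than 1 list, so the counts of the lists overlap.

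The members and lists were chosen with earlier results of these data known. Named segments were those with the highest means, the largest differences that passed without overlap, those that stood out on 1 array, and those with the smallest range. Precision is limited by 3 arrays a group, and p-values mix spread between mice with spread between pools. Same-numbered wild type samples came from different mice. The limma steps were tested on simulated data. Plots used Python 3.11.15 and matplotlib 3.10.9.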

Additional observations from a re-analysis of the deposited data

How the results depend on the processing

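Of the 12 kappa V segment probe sets, 1 was lower in leukemias against whole marrow, and this count was 2 with centring on the 75th percentile, 2 among bright probe sets only, 2 of the 25 with any V symbol, and between 0 and 3 when 1 array was left out. Against the pools 2 were lower, 0 after cyclic loess, 1 with 16 added to the intensities, 1 with unnamed probe sets included, 1 with only the 2 groups fitted, and 0 to 2 with 1 array left out. Among all probe sets tested, lower calls against whole marrow numbered 2239 as reported and 1430 to 2750 over the settings used. Against the pools they numbered 1165 as reported and 491 to 1204 over the settings. Between the wild type groups 0 of the 12 were higher. Same-numbered wild type samples deviated together with r = 0.33, 0.0082 and 0.0095. The highest r of pools 1, 2 and 3 with another whole marrow number was -0.11, 0.13 and 0.13. Only number 1 thus correlated best with its own number. As these samples came from different mice, the numbers were not taken as pairs. With a replicate block 2 of the 12 were higher between the wild type groups, Igkv9-120 and Igkv6-20, as were 5113 of all 23410 probe sets. The median between the wild type groups was -0.05 with centring on the 75th percentile, -0.16 after loess and -0.18 to 0.40 with 1 array left out. The cause of these changes was not tested.

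Centring on the 75th percentile moved the median of all probe sets between the wild type groups to -0.15, against -0.03 as reported. Higher calls made up 60.3% of all calls for leukemias against whole marrow, 46.9% with that centring and 46.6% after loess. They made up 34.7%, 44.0% and 45.4% for leukemias against pools, and 63.3%, 50.2% and 50.7% for pools against whole marrow.

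Among the 12, directions changed only for differences that did not pass. Among list genes that passed, Yy1 between pools and whole marrow (0.24) had a low of -0.0024. Between pools and whole marrow Igkv10-96 was -0.10 with that centring and -0.18 after loess, and Igkv4-59/Igkv4-80 was -0.15 after loess. With 1 array left out this difference ran between -0.47 and 0.075 for Igkv1-133/Igkv1-135, -0.20 and 0.34 for Igkv10-96, -0.28 and 0.85 for Igkv19-93 probe set A, -0.15 and 0.46 for Igkv4-59/Igkv4-80, -0.22 and 0.34 for Igkv4-55, -0.24 and 0.062 for Igkv5-43, and -0.66 and 0.11 for Igkv6-14/Igkv6-15. For leukemias against whole marrow it ran between -2.11 and 0.29 for Igkv9-120, -1.71 and 0.087 for Igkv10-96, and -2.43 and 0.00056 for Igkv6-14/Igkv6-15. For leukemias against pools it ran between -1.73 and 0.065 for Igkv10-96 and -2.15 and 0.29 for Igkv6-14/Igkv6-15. Signal near background limits Igkv4-91, Igkv4-55, Igkv5-43 and Igkv6-20 in leukemia 2, which lay below that array's median.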
